A study of Mus musculus with 6 samples.

Results

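The 10 genes described here encode the NF-κB/Rel subunits (Nfkb1, Nfkb2, Rel, Rela and Relb), 4 IκB proteins (Nfkbia, Nfkbib, Nfkbie and Nfkbiz) and the deubiquitinase A20 (Tnfaip3). They were found by symbol, through the Ensembl gene identifier without its version, among the 55335 genes of the deposited count table, and all 10 were present in it. Expression in wild-type mouse embryonic fibroblasts (MEF), a connective tissue cell grown in serum-containing medium, was measured by RNA-seq of polyadenylated RNA. Parental MEF cells that had not migrated (Ctrl) were compared with MEF cells collected 15 h after seeding on a transwell membrane, once they had come through its 3 μm pores (Confine), to look for regulators of migration under confinement. No sample was kept on a membrane without passage, so passage through the pores and culture on the membrane cannot be told apart. The paper's transwell protocol, written for another pore size, placed cells in serum-free medium above medium with serum. Whether these samples were handled so is not stated, and a serum difference between the groups cannot be told apart from passage either. No treatment with an NF-κB ligand was part of the design.

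Of the 6 deposited columns, 3 per group, those of Confine replicates 1 and 2 held the same count in all 55335 genes. They were counted as 1 library, called the repeated Confine library here, which left 3 Ctrl and 2 Confine libraries. Total counts ran from 22287210 to 27853805 in Ctrl and from 27290138 to 32537550 in Confine. Among 12 fibroblast markers, Col1a1, Col1a2, Vim, Fn1, Pdgfra and Pdgfrb were present in every library, while Thy1, Lum and Fap never exceeded 2 counts and Dcn never exceeded 27. Among 17 leukocyte markers, 7 had 0 counts in every library, Ptprc had at most 2 counts and Adgre1 had 0. The summed level of these 17 genes was 16.0 to 18.4 normalized CPM in Ctrl and 36.0 to 41.5 in Confine, with Cd68, Csf1r and Cd14 higher and Lyz2 lower. The labels do not say whether libraries came from separate cultures, so p-values measure only the spread between these libraries.

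NF-κB factors are dimers of Rel family proteins that the IκB proteins hold in the cytoplasm. In the canonical pathway, ligands such as TNF and IL-1 activate the IκB kinase, which marks IκB for destruction and frees dimers of p65 (Rela) and p50 (made from Nfkb1) to enter the nucleus. In the non-canonical pathway, the kinase NIK (Map3k14) leads to the processing of p100 (Nfkb2) to p52, which pairs with RelB. Several genes of the pathway are themselves NF-κB targets, among them those of IκBα and A20, whose products switch the signal off again, and fibroblasts are known to answer this pathway with chemokines and matrix proteases.

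NF-κB dimers bind a 10-base DNA element, the κB motif, so the promoters of the 10 genes were searched for its consensus. RefSeq promoter windows (GRCm38.p6), which run from 250 bases before to 50 bases after an annotated start site, existed in the table used for 7 of the genes. Nfkb1, Relb and Nfkbiz had none there. A match on either strand lay in the windows of 5 of these 7 genes, Nfkbia, Tnfaip3, Nfkb2, Rel and Nfkbie, but not in those of Rela and Nfkbib. Among all 32851 windows, 8.46% held a match, and among the 10303 tested genes with a window, 12.35% had one in at least 1 window. Of the Nfkb2 windows, the second and the third overlap and share 1 match. A match is a string of letters and not a measured binding site, and binding was not measured here.

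The Nfkbia sequence is shown because Nfkbia was the member with the highest expression. It gives the 250 bases before the start site (chr12:55492648-55492897, minus strand), with the match in capitals, 29 bases before the start.
Nfkbia: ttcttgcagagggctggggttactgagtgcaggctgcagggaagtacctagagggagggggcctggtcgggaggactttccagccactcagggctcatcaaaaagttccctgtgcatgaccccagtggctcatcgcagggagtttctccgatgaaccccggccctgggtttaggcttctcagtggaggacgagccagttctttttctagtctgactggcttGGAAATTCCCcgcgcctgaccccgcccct

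For the other members, 30 bases around a match are shown so that the elements can be compared, again with the match in capitals. Tnfaip3 has a match 125 bases before its start (chr10:19015516-19015545, minus strand) and another 12 bases before it (chr10:19015403-19015432, minus strand). The Nfkb2 match shown lies 39 bases before the first of its start sites (chr19:46304688-46304717, plus strand), and another lies 11 bases before it. The match lies 92 bases before the start in Rel (chr11:23771042-23771071, minus strand) and 106 bases before it in Nfkbie (chr17:45555584-45555613, plus strand). In Nfkb2 and Rel, overlapping matches run over 11 bases.
Tnfaip3, first: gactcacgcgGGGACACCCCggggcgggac
Tnfaip3, second: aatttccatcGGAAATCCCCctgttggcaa
Nfkb2: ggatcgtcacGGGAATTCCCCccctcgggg
Rel: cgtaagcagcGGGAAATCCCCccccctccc
Nfkbie: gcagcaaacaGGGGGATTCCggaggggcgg

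Between Confine and Ctrl, 5 of the 10 members were upregulated and 0 were downregulated (edgeR's quasi-likelihood test over the 15881 genes kept by its filter on low counts, called at an adjusted p under 0.05 by the Benjamini-Hochberg method). The upregulated members were Tnfaip3, Nfkbiz, Nfkbia, Relb and Nfkb1. Of all tested genes, 23.0% were called by this rule, 12.8% higher in Confine and 10.2% lower. At an unadjusted p under 0.05, 7 members were higher and 0 lower in edgeR. The share of all tested genes at that looser threshold is not given here, and it is larger than at the adjusted one. DESeq2 and limma-voom each called 5 members higher and 0 lower. Of all 15881 tested genes, DESeq2 called 1981 higher and 1729 lower, and limma-voom 2077 and 1562. In normalized CPM (counts scaled by library size and the TMM factor), both Confine libraries lay above all 3 Ctrl libraries in 8 of the 10 members, against 25.9% of all tested genes, and below them in 0, against 23.6%. The median log2 fold change was 0.59 over the members and -0.0021 over all tested genes. Scaling by library size and no TMM factor moved the median of all tested genes to -0.21. Of the genes called, 34.0% were then higher in Confine in place of 55.7%, and 4 members were called higher. Without Confine replicate 3, 3 members were called higher, Tnfaip3, Nfkbiz and Nfkbia. The leukocyte marker sum given above, most of it Cd68 and Cd14, moved in the same direction as these members, while Lyz2 went the other way. Its part in the member values was not tested. In bulk RNA, more transcript per cell and more cells that express a gene cannot be told apart.

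**Figure D1:**
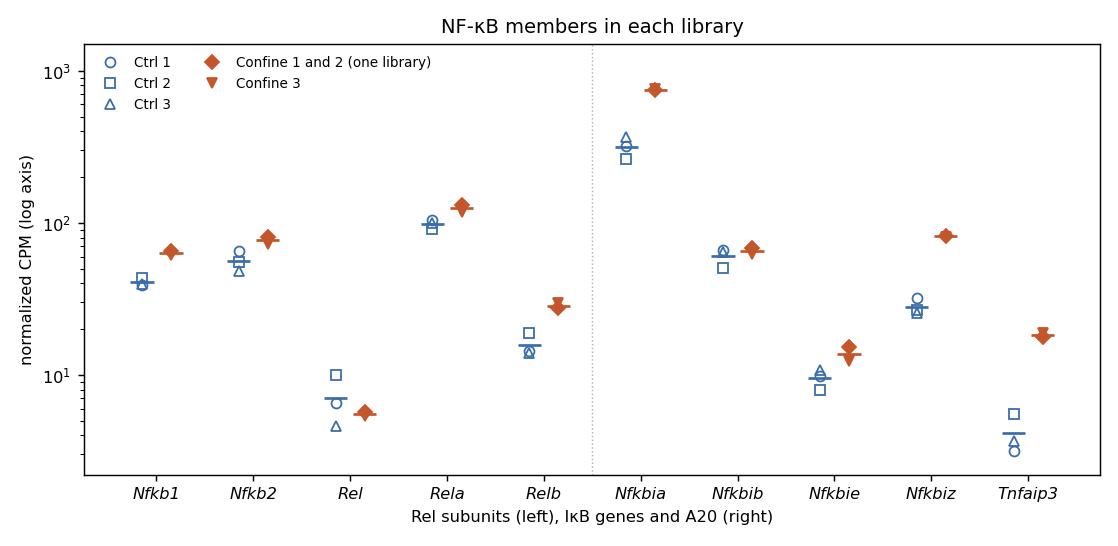
Normalized CPM of each member in each library, on a log axis, with open symbols for the 3 Ctrl libraries, filled symbols for the 2 Confine libraries and short lines for the group means. Nfkbia, Nfkbiz and Tnfaip3 show the widest gaps between groups, and Rel and Nfkbib are the 2 genes in which the groups overlap.

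Tnfaip3 encodes A20, which removes and edits ubiquitin chains on signalling proteins such as RIPK1 and so limits NF-κB activation. Its GRCm38 position is chromosome 10, 19000910 to 19015657, minus strand. Its counts were 92, 146 and 86 in Ctrl replicates 1 to 3, 526 in the repeated Confine library and 471 in Confine replicate 3. This corresponds to 3.18, 5.52 and 3.66 normalized CPM in Ctrl and to 17.8 and 18.7 in Confine. The highest Ctrl library, replicate 2, was still far below either Confine library. Tnfaip3 rose by 2.15 on the log2 scale (SE 0.24, edgeR adjusted p = 3.54e-06), the largest value of the 10 members, and 97.3% of all tested genes had a lower one. In Ctrl it also had the lowest mean level of the members, 0.570 CPM per kilobase of annotated exon.

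Nfkbiz encodes IκBζ, an atypical nuclear IκB that acts with p50 as a coactivator of secondary response genes and does not hold NF-κB in the cytoplasm. The gene spans 55811375 to 55838899 of chromosome 16, minus strand. Counts of 930, 708 and 600 in Ctrl stood against 2435 and 2032 in Confine. After scaling, Ctrl had 32.1, 26.8 and 25.5 normalized CPM and Confine 82.3 and 80.7, so the Confine libraries lay close together and apart from Ctrl. This was a rise of 1.53 on the log2 scale (SE 0.18, edgeR adjusted p = 5.38e-06). Tnfaip3 and Nfkbiz were the 2 members that also passed the study's cutoff of an absolute log2 fold change above 1.5, as 4.89% of all tested genes did in the same direction. Nfkbiz stood close to that cutoff, with 1.33 with library size alone, 1.49 without Ctrl replicate 2 and 1.45 without Ctrl replicate 3.

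Nfkbia encodes IκBα, the classical inhibitor that is degraded on stimulation and made again as NF-κB activates its gene. The gene spans 55489410 to 55492647 of chromosome 12, minus strand. It had 9223, 6929 and 8656 counts in Ctrl and 22135 and 19003 in Confine, a mean above that of 98.2% of the tested genes. In normalized CPM this was 318.6, 261.9 and 368.1 in Ctrl against 747.8 and 754.5 in Confine. The lowest and the highest Ctrl library were further apart than the 2 Confine libraries, and the groups did not overlap. The rise was 1.25 on the log2 scale (SE 0.18, edgeR adjusted p = 5.97e-05).

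**Figure D2:**
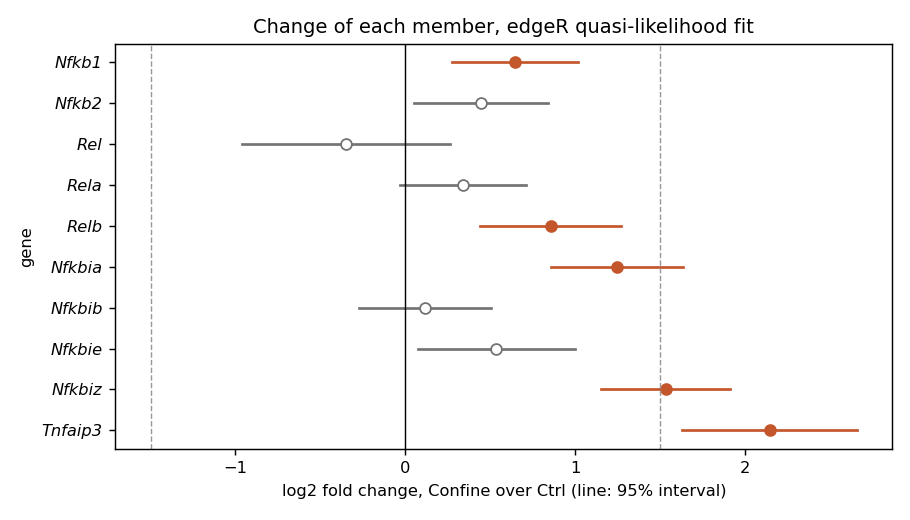
Log2 fold change of each member, Confine over Ctrl, from edgeR's quasi-likelihood fit, with lines for 95% intervals. Filled symbols mark the 5 members with an adjusted p under 0.05 and dashed lines the study's cutoff of 1.5 in either direction. Tnfaip3 has the largest value, at 2.15, and Rel is the member below 0, at -0.35.

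The remaining IκB genes of the classical, cytoplasmic kind did not pass the test. Nfkbib, which encodes IκBβ, had 65.9, 50.6 and 64.0 normalized CPM in Ctrl and 67.8 and 62.5 in Confine, so the groups overlapped. Its log2 fold change was 0.12 (95% interval -0.28 to 0.51, edgeR adjusted p = 0.715) and -0.091 with library size alone. Nfkbie, which encodes IκBε, another inhibitor with an NF-κB-responsive gene, had 9.81, 7.90 and 10.8 normalized CPM in Ctrl and 15.2 and 12.3 in Confine. Both Confine libraries were above Ctrl, but the log2 fold change of 0.54 (95% interval 0.074 to 1.00) had an edgeR adjusted p of 0.0900. Its counts, from 209 to 451, are among the lower ones of the family. Nfkbib overlaps Sirt2 on the opposite strand in 42 bp of exon sequence, and Sirt2 itself had a log2 fold change of 0.57 (edgeR adjusted p = 0.0411). Whether counting used the strand is not given in the sources used here.

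Of the subunit genes, Relb and Nfkb1 were upregulated. Relb, whose product is the partner of p52 in the non-canonical pathway and whose gene responds to canonical NF-κB, spans 19606217 to 19629438 of chromosome 7, minus strand. Its normalized CPM was 14.4, 19.0 and 13.9 in Ctrl and 27.6 and 29.5 in Confine. Ctrl replicate 2 was the highest Ctrl library here too, without reaching Confine. Relb rose by 0.86 on the log2 scale (SE 0.20, edgeR adjusted p = 0.00360), and the value was 0.81 with an adjusted p of 0.0610 without Confine replicate 3. Annotated Relb transcripts hold a stretch of up to 125 bp that occurs at 95% identity or more in transcripts of 32 other genes, so its counts are uncertain to that extent.

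Nfkb1, which encodes p105, the precursor of p50 and itself an IκB-like inhibitor, spans 135584655 to 135691547 of chromosome 3, minus strand. It had 38.7, 43.6 and 39.5 normalized CPM in Ctrl and 65.7 and 61.4 in Confine. The Confine libraries lay well above a narrow range of Ctrl values. Nfkb1 rose by 0.65 on the log2 scale (SE 0.18, edgeR adjusted p = 0.0118). This was the least stable of the 5 calls: the adjusted p was 0.0629 without Ctrl replicate 1, 0.125 without the repeated Confine library, 0.0762 without Confine replicate 3 and 0.0794 with library size alone, with log2 fold changes of 0.61, 0.60, 0.69 and 0.44.

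Rela, Nfkb2 and Rel did not pass the test. Rela, which encodes p65, the main transactivating subunit, had 105.1, 90.5 and 99.6 normalized CPM in Ctrl and 131.8 and 117.6 in Confine. Its log2 fold change was 0.34 (95% interval -0.029 to 0.71, edgeR adjusted p = 0.182). Nfkb2, which encodes p100, the precursor of p52, had 65.4, 55.2 and 48.1 normalized CPM in Ctrl and 80.9 and 72.5 in Confine, with a log2 fold change of 0.45 (95% interval 0.054 to 0.84, edgeR adjusted p = 0.0969). In both genes the Confine libraries were above all Ctrl libraries, by less than in Relb or Nfkb1. Nfkb2 shares 531 bp of exon sequence with AC114539.1 and 299 bp with Psd, both on the opposite strand.

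Rel, which encodes c-Rel, a subunit best known from lymphocytes, was the one member with a negative value. It had 189, 263 and 108 counts in Ctrl and 169 and 134 in Confine, which is 6.53, 9.94 and 4.59 against 5.71 and 5.32 normalized CPM. Both Confine libraries fell within the range of Ctrl, which was set by Ctrl replicates 2 and 3. The log2 fold change was -0.35 (95% interval -0.96 to 0.27, edgeR adjusted p = 0.437). It was -0.020 without Ctrl replicate 2, the library with the highest Rel level.

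To compare levels between genes, normalized CPM was divided by the length of all annotated exons of a gene in kilobases. In Ctrl, Nfkbia had by far the highest level, at 196.4 CPM per kilobase, followed by Rela at 32.0, Nfkbib at 27.7 and Nfkb2 at 12.3. Nfkbiz (5.61), Relb (4.05), Nfkb1 (3.36) and Nfkbie (3.12) came next, and Rel (0.940) and Tnfaip3 (0.570) were lowest. The libraries of Rela and Nfkbib overlapped in this order, and so did those of Relb and Nfkb1, of Nfkb1 and Nfkbie, and of Rel and Tnfaip3. In Confine, Nfkbia reached 466.6 CPM per kilobase, Nfkbiz stood at 16.2 beside Nfkb2 at 16.7 with overlapping libraries, and Tnfaip3 at 2.52 was above Rel at 0.739. The annotated exon length includes isoforms that may not be used in these cells, and a gene with long alternative exons, such as Nfkb1 with 12061 bp, then has too low a level per kilobase.

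The level of the IκB genes relative to the subunit genes, with the nuclear coactivator gene Nfkbiz counted among the former, was read within each library, where the scaling between libraries cancels. The summed level of the 4 IκB genes was 4.23, 3.78 and 5.30 times the summed level of the 5 subunit genes in Ctrl and 7.003 and 7.67 times in Confine. The groups did not overlap in this ratio. The subunit sum itself went from 56.3, 51.3 and 50.4 CPM per kilobase in Ctrl to 73.9 and 67.5 in Confine, and the IκB sum from 237.9, 193.9 and 266.8 to 517.2 and 517.6. Nfkbia made up 83.2% to 85.7% of the IκB sum in Ctrl and 89.8% to 90.6% in Confine. The ratio of Nfkbia to Rela was 5.79, 5.52 and 7.06 in Ctrl and 10.8 and 12.2 in Confine. These values were set side by side without a test.

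Within the subunits, Rela made up 57.4% to 64.4% of the summed level in Ctrl and 56.7% to 58.1% in Confine, and the groups overlapped. Nfkb2 was next, with 20.8% to 25.4% in Ctrl and 23.4% to 23.9% in Confine. The share of Relb was 6.59%, 9.51% and 7.09% in Ctrl and 9.61% and 11.3% in Confine. The lower Confine value was close to that of Ctrl replicate 2. The share of Nfkb1 was 5.70% to 7.04% in Ctrl and 7.37% to 7.54% in Confine, and that of Rel 1.22% to 2.59% in Ctrl and 1.04% to 1.06% in Confine. Per kilobase of annotated exon, Rela and Nfkb2 were thus the leading subunit transcripts in all 5 libraries. The share of Nfkb1 is too low if the long alternative exons within its 12061 bp are not used. Before division by length, mean normalized CPM was 40.6 for Nfkb1 and 56.2 for Nfkb2 in Ctrl, and 63.5 and 76.7 in Confine.

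**Figure D3:**
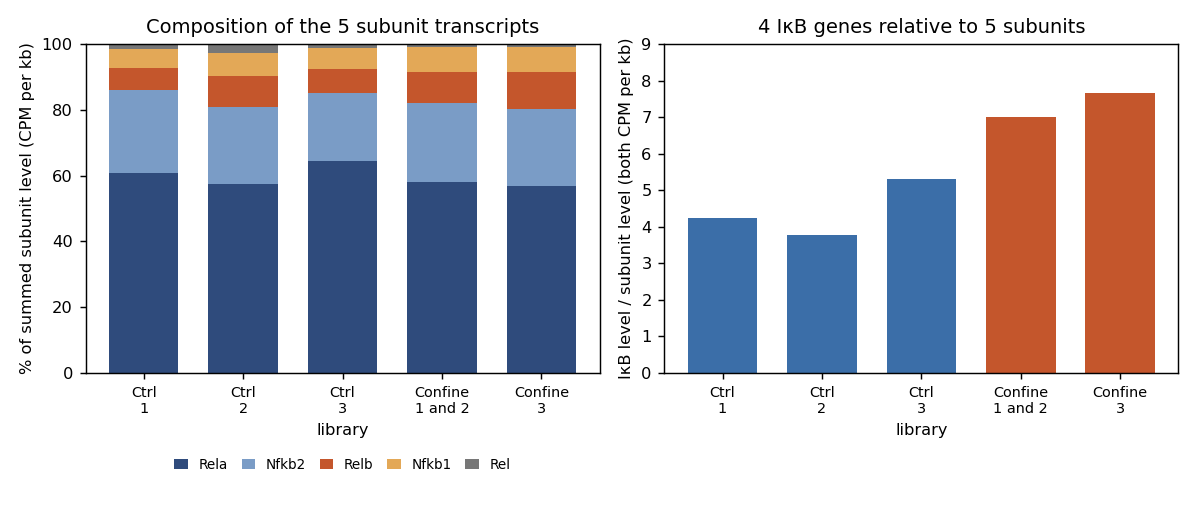
Left, the share of each subunit gene in the summed subunit level (CPM per kilobase) of each library, in percent. Right, the summed level of the 4 IκB genes divided by that of the 5 subunit genes, with Ctrl libraries in blue and Confine libraries in orange. Per kilobase of annotated exon, Rela and Nfkb2 lead in every library, and the share of Nfkb1 depends on its long annotated exons. The ratio is 3.78 to 5.30 in Ctrl and 7.003 to 7.67 in Confine.

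Upstream of these genes, a list of 30 ligands and receptors held 15 tested genes, of which 5 were upregulated (33.3%, against 12.8% of all tested genes) and 1 was downregulated (6.67%, against 10.2%) in Confine, with a median log2 fold change of -0.019. Il33, an alarmin of the IL-1 family, rose by a log2 fold change of 1.97 (edgeR adjusted p = 2.35e-06). The IL-1 receptor Il1r1 (1.15) and the second TNF receptor Tnfrsf1b (1.09) also rose. Ltbr, the lymphotoxin β receptor that signals through the non-canonical pathway, fell by 0.64 (edgeR adjusted p = 0.0286), a call lost without Ctrl replicate 1 (adjusted p = 0.0567), without the repeated Confine library (0.186) and without Confine replicate 3 (0.174). Tnf had 0 counts in every library, which allows up to 0.128 normalized CPM at 3 counts in the shallowest one, for counting error only. Il1a, chosen after its values were seen, had 0 counts in all 3 Ctrl libraries and 11 and 8 in Confine, at least 2.70-fold higher in Confine against 3 counts per Ctrl library, and was too low to be tested.

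Among 36 adaptors and kinases, all tested, 5 were upregulated (13.9%, near the 12.8% of all tested genes). None was downregulated, against 10.2% of all tested genes. The median log2 fold change was 0.10. At an unadjusted p under 0.05, 7 were higher and 0 lower in edgeR, and DESeq2 and limma-voom each called 0 lower. Of all 15881 tested genes, DESeq2 called 1729 lower and limma-voom 1562. The share of all tested genes at the unadjusted threshold is not given here. The kinases Ikbke (1.20) and Map3k8 (1.13) and the ubiquitin ligase Traf6 (1.14) rose. Map3k8, also called Tpl2, is the kinase that p105 holds inactive. The subunits of the IκB kinase itself did not pass the test. The log2 fold changes were 0.011 for Chuk (95% interval -0.39 to 0.41), 0.12 for Ikbkb (-0.27 to 0.51) and 0.086 for Ikbkg (-0.32 to 0.49). For Map3k14, the kinase of the non-canonical pathway, the value was 0.40 (95% interval -0.067 to 0.86, edgeR adjusted p = 0.218).

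Among 28 further inhibitors of the pathway, 26 were tested, 3 were upregulated (11.5%) and 1 was downregulated (3.85%), with a median log2 fold change of 0.058. Both shares lie below those of all tested genes, 12.8% and 10.2%. Tnip3, which encodes a partner of A20, rose by a log2 fold change of 1.60 (edgeR adjusted p = 1.14e-04), Zc3h12a, which encodes an RNase that degrades cytokine transcripts, by 1.17, and Rnf11, which encodes another member of the A20 complex, by 1.01. Traip fell by 1.54 (edgeR adjusted p = 3.91e-05). Its product binds TRAF proteins but is better known as a ubiquitin ligase of DNA replication and repair. The other atypical IκB genes had few counts and did not pass the test, with a log2 fold change of 0.67 for Bcl3 (95% interval -0.61 to 1.95) and 1.25 for Nfkbid (-0.15 to 2.65).

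A list of 38 genes known as NF-κB targets in textbooks held 33 tested genes. Of these, 18 were upregulated (54.5%, against 12.8% of all tested genes) and 1 was downregulated (3.03%, against 10.2%). The median log2 fold change was 0.86. Like the other lists, it was written with earlier results of these data known. Its share describes the list and is not independent evidence. Leaving out each library in turn gave 16 to 18 upregulated targets. The largest rises among targets with a mean of at least 50 counts were those of Nos2, the inducible nitric oxide synthase (log2 fold change 8.20), and of the matrix proteases Mmp13 (6.22) and Mmp3 (5.88), with edgeR adjusted p of 2.33e-11, 2.47e-10 and 2.33e-11. The Confine libraries differed in Mmp13, with 12588 and 4319 counts, and its log2 fold change was 5.42 without the repeated Confine library and 6.73 without Confine replicate 3. They differed in Mmp3 too, with 110128 and 48232 counts, and its log2 fold changes in the same order were 5.32 and 6.28. Nos2 went from 2, 5 and 4 counts in Ctrl to 932 and 1351 in Confine. The chemokine gene Ccl7 fell by 1.04 (edgeR adjusted p = 0.00114, and 0.0549 without Confine replicate 3). The 14 tested targets without a call included Il6 (log2 fold change 0.33), Ccl2 (-0.41), Cxcl1 (0.21) and Vcam1 (-0.46), chosen after their values were seen as familiar NF-κB readouts. The summed leukocyte markers, mostly Cd68 and Cd14, were higher in Confine beside these targets too, and their part in the target values was not tested.

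**Figure D4:**
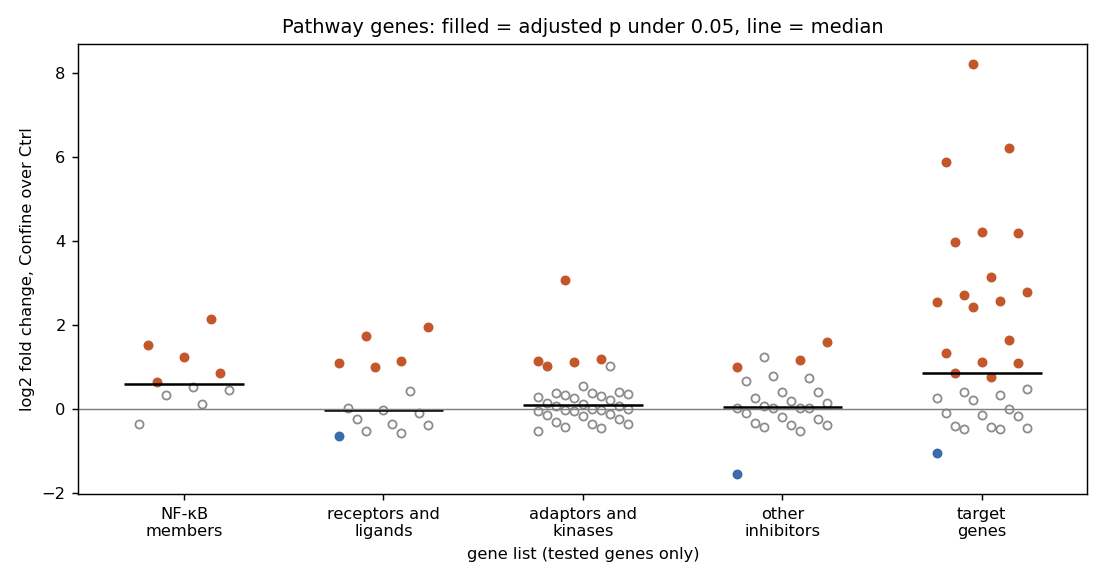
Log2 fold change, Confine over Ctrl, of the tested genes of 5 lists, where each point is a gene, filled points have an adjusted p under 0.05 in edgeR's test and black lines are list medians. The medians are 0.59 for the NF-κB members, -0.019 for receptors and ligands, 0.10 for adaptors and kinases, 0.058 for other inhibitors and 0.86 for target genes.

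Of the upregulated members, Nfkb1, Relb and Nfkbiz had no promoter window and could not be set against the κB matches. Of the 5 members with a match, Tnfaip3 and Nfkbia were upregulated, while Nfkb2, Nfkbie and Rel were not called. Neither of the 2 members whose windows had no match, Rela and Nfkbib, was called. Of the target genes, 26 had a window in the same table, and 13 of these held a match, beside 12.35% of all tested genes with a window. The target list was written with earlier results of these data known, and this count was not tested.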

How the data were processed

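The authors deposited raw counts per gene, without normalization, for 6 columns. Per the labels, polyadenylated RNA was sequenced from dUTP libraries and processed with Trim Galore 0.6.10, HISAT2 2.1.0, SAMtools 1.5 and featureCounts on mm10; their roles, the strand setting and the annotation release are not given in the sources used here. Gene names, positions and exon lengths came from GENCODE M21 (GRCm38), which matched 55154 of 55335 identifiers, 54587 with their version. Identical columns were merged and 0 columns were left unused.

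Genes kept by filterByExpr (15881) were scaled by TMM and tested with edgeR 4.0.16 (quasi-likelihood, no replicate block, 3 residual degrees of freedom) in R 4.3.3. A floor of 3 counts corresponds to 0.101 to 0.128 normalized CPM, and floors cover counting error only. With 3 libraries against 2, an exact permutation test of 1 gene cannot go below p = 0.1, so none is given. DESeq2 1.42.0, limma-voom (limma 3.58.1) and the other alternatives are in the closing section. Counts were simulated over 15881 genes, with 105 genes changed by a log2 fold of 1 and 95 by 1.5. From these, edgeR recovered 55.2% and 74.7%, with 8.51% false calls. Far fewer genes were changed than the 3654 called in the data, so the rates need not hold for them. Copies were searched with blastn 2.17.0 (at least 100 bp at 95% identity).

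The members, the lists and their tests were chosen with earlier results of these data known. The text names all members, up to 3 called genes with the largest change per list and direction with a mean of at least 50 counts and no overlap between groups, and Chuk, Ikbkb, Ikbkg, Map3k14, Bcl3 and Nfkbid. Outside this rule, Tnf, Il1a, Il6, Ccl2, Cxcl1 and Vcam1 were named after their values were seen. Marker lists serve only as a check of the cell type: 5 of 8 tested fibroblast markers were higher, and 1 of 7 endothelial and 0 of 7 epithelial markers were tested, the former, Vwf, being higher.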

Additional observations from a re-analysis of the deposited data

How the results depend on the processing

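Of 140 log2 fold changes of members under the alternatives, 128 kept their direction and their side of the threshold, and Nfkbia, Nfkbiz and Tnfaip3 kept an adjusted p under 0.05 in all 14, with ranges of 1.04 to 1.35, 1.33 to 1.64 and 1.93 to 2.42. Unless a cause is named, the cause of a change was not tested. With library size alone, Nfkb1 (0.44) lost its call, Nfkbib became -0.091, 1 member passed the study's cutoff, and 2805 genes were lower against 1619. With the identical Confine columns counted as 2 samples, which adds a library without new data, 8 members were called higher. Nfkb2 (0.46), Rela (0.36) and Nfkbie (0.57) were the additions. Calls rose over all genes too: of 15408 tested in this setting, 2690 were higher and 2456 lower. In a test against a fold of 1.5, 3 members and 1691 genes were called, 1014 higher and 677 lower, against 3654 called and 2035 higher without it.

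The labels give same-numbered libraries nothing in common but the number. The correlation of their differences was -0.058 across genes with the repeated library as number 2 and 0.057 as number 1. Each value rests on 1 difference per group, so it cannot decide whether libraries were paired. With the replicate block and the repeated library as number 2, 4 members and 2528 genes were called, 2479 of the latter shared with the fit without the block, and Nfkb1 (0.61) lost its call. As number 1, 6 members and 4933 genes were called, Nfkb2 (0.45) gained a call and Rel became 0.0010. A Ctrl library without a same-numbered Confine library does not enter these estimates. This is Ctrl replicate 1 in the former fit and Ctrl replicate 2 in the latter. Without a block, leaving out Ctrl replicate 1 gave 0.61 for Nfkb1. Leaving out Ctrl replicate 2 gave 0.43 for Nfkb2 and -0.020 for Rel. The fits with the block keep 1 residual degree of freedom, so their p-values rest mostly on the spread shared by genes.

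With 1 library left out at a time, log2 fold changes ran from 0.60 to 0.70 for Nfkb1, 0.33 to 0.57 for Nfkb2, -0.59 to -0.020 for Rel, 0.26 to 0.42 for Rela, 0.76 to 1.01 for Relb, 0.0014 to 0.18 for Nfkbib and 0.38 to 0.68 for Nfkbie. Between 3 and 5 members were called higher and 1 to 2 passed the study's cutoff, among 2054 to 4426 genes called, 1196 to 2411 higher and 850 to 2015 lower. Where 1 Confine library is left, it is assumed to vary like the Ctrl libraries.

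The list counts were run under these alternatives after the data had been seen. The number called lower was 1 for receptors and ligands, 0 for adaptors and kinases, 1 for other inhibitors and 1 for target genes. With library size alone these were 3, 2, 3 and 5, and with the block and the repeated library as number 1 they were 3, 4, 2 and 4. Lower calls rose over all 15881 tested genes too, from 1619 to 2805 and 2293 in these 2 settings. With the block and number 2, or the test against a fold of 1.5, 0 receptors and ligands were lower. With the identical columns as 2 samples, 5 other inhibitors were higher in place of 3, 3 were lower, and 4 target genes were lower, and DESeq2 called 2 other inhibitors lower. Leaving out libraries gave 0 to 3 lower receptors and ligands, 0 to 2 adaptors and kinases, 1 to 2 other inhibitors and 0 to 3 target genes.

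The values of the IκB kinase subunits, near 0, changed sign. Chuk was -0.0021 with RLE and with DESeq2, -0.20 with library size alone, -0.0006 with no filter, -0.0036 with limma-voom and -0.014 with the block and number 1. Leaving out libraries gave -0.22 to 0.21 for Chuk, and without Ctrl replicates 2 and 3 it was -0.0045 and -0.021. With library size alone Ikbkb was -0.086 and Ikbkg -0.12, and Ikbkg ranged from -0.22 to 0.34 with libraries left out. Low counts, at most 15 per library in Bcl3 and 24 in Nfkbid, limit these genes.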
